A study of Mus musculus with 6 samples.

Results

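Caveolins and the proteins of the caveolar coat were followed in E0771 cells, a mouse breast adenocarcinoma line of C57BL/6 origin, with and without knockdown of lamin A/C. The group held 7 genes, chosen by name and kept because each had its own row in the table of unique molecular identifier (UMI) counts, in which every gene reached at least 6 UMIs in some library. They were Cav1 and Cav2 (the caveolins), Ptrf, Sdpr and Prkcdbp (now named Cavin1, Cavin2 and Cavin3), Pacsin2 and Ehd2, and all 7 were found among the 10520 genes of the table. The rule read no fold change, but the family was picked with earlier results of this comparison known, so its fold changes and counts are given as a description, and each adjusted p comes from the fit across all tested genes. The 3 shControl libraries came from cells transduced with a lentiviral pLKO vector for puromycin selection that carried no insert, and the 3 shLmna libraries from cells given an shRNA against lamin A/C in a vector of the same kind. The titles of the shLmna libraries read shRNA4 and their descriptions read shLmna. The labels do not say which lamin A/C construct of the study shRNA4 denotes. Both lines were selected and expanded under puromycin with no cloning step described, the knockdown rested on 1 construct, and the labels do not say whether the libraries of a group came from separate cultures, so p-values may measure technical spread only. RNA was read by MARS-seq, which samples the 3' ends of polyadenylated transcripts and counts each captured molecule once by its UMI.

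Caveolae are flask-shaped pits of the plasma membrane, abundant in endothelium, adipocytes and muscle, that flatten when the membrane is stretched and so act as a reserve of membrane. Caveolin-1, encoded by Cav1, inserts into the cholesterol-rich inner leaflet as a hairpin and forms the oligomers on which the pit is built, and caveolin-2 joins it and needs it to leave the Golgi. Cavin-1 (Ptrf) assembles on the caveolin oligomers from the cytosol and is required for the pit, while cavin-2 (Sdpr) and cavin-3 (Prkcdbp) bind cavin-1 and join its coat. Pacsin2 (syndapin-2) is an F-BAR protein that bends the membrane at the neck of the pit, and Ehd2 is a dynamin-like ATPase that gathers at the neck and holds caveolae at the cell surface.

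The members lie on 5 chromosomes of GRCm38 (mm10), and only Cav1 and Cav2 are neighbours. Cav2 spans 17281185 to 17289115 and Cav1 spans 17306335 to 17341452, both on the forward strand of chromosome 6. Ptrf lies on the reverse strand of chromosome 11 from 100956733 to 100970887, Prkcdbp on the reverse strand of chromosome 7 from 105480083 to 105482300, and Ehd2 on the same strand of that chromosome from 15946958 to 15967567. Sdpr lies on the forward strand of chromosome 1 from 51289126 to 51302960 and Pacsin2 on the reverse strand of chromosome 15 from 83375607 to 83464606. The last 1000 bases of each member's longest protein-coding transcript in GENCODE M21 lay within 1 exon, and neither they nor the 100 bases downstream overlapped an exon of another gene. UMIs were counted by the authors on RefSeq genes, whose ends can differ: Cav1 ends at 17341328 in RefSeq.

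The RefSeq promoter table (GRCm38.p6) gives 250 bases before and 50 after each start. Start regions were found in it for 6 of the 7 members, all but Prkcdbp. Those of both caveolins and of cavin-1 are shown because these are the membrane scaffold and the coat protein it recruits, and their transcripts were higher in all 3 shLmna libraries. Capitals mark matches, on either strand, to the letters GGGCGG (an Sp1 box), TGANTCA (AP-1) or GGAATG (TEAD). The motifs were chosen with the expression values known.
Cav1, chr6:17306085-17306384, forward strand: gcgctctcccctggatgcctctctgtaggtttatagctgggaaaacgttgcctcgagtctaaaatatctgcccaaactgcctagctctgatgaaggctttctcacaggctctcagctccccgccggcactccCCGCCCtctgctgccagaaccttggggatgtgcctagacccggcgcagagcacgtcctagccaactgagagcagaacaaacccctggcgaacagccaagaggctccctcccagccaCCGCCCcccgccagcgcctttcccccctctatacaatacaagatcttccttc
Cav2, chr6:17280935-17281234, forward strand: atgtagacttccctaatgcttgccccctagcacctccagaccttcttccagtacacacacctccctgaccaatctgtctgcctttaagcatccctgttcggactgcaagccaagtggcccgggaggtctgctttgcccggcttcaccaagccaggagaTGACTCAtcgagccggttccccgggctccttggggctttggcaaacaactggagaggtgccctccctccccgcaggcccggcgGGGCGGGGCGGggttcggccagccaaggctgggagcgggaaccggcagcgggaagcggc
Ptrf, chr11:100970566-100970865, reverse strand: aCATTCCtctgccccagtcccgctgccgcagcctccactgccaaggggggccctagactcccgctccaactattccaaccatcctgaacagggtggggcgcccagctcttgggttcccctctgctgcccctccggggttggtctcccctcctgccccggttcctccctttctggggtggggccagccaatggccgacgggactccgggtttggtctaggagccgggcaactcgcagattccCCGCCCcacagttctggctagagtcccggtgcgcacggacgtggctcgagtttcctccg
The table lists 2 start regions for Cav1, and the other, at chr6:17307390-17307689, held none of these letters. It also lists 2 for Ptrf that start 2 bases apart and 3 for Pacsin2. The Cav1 region shown held 2 Sp1 boxes, starting at -118 and -2 from the transcription start. The Cav2 region held an AP-1 match at -92 and 2 Sp1 boxes, at -9 and -4, that overlap each other. The Ptrf region held a TEAD match at -249 and an Sp1 box at -9. Of all 32851 start regions of this length, 35.7% held an Sp1 box, 7.8% an AP-1 match and 14.7% a TEAD match. A FOXO match (TGTTTAC, in 3.6% of all start regions) was searched and not found in the start regions of the members. Of the members that did not pass the test below, Pacsin2 had an AP-1 match at -152 in one start region and Sp1 boxes at -55 and -2 in another, Ehd2 had Sp1 boxes at -226 and 15, and Sdpr had none of these letters. Matches were thus found both in members that rose and in members that did not pass. The matches describe the sequence, and binding was not measured.

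The 6 libraries held between 1846208 and 3242051 UMIs. No pair of replicates matched within counting noise (chi-square divided by its degrees of freedom, 5.11 to 8.28), so none was treated as a repeat of another. Levels are given as CPM, the UMIs of a gene scaled to 1000000 UMIs of tested genes in each library after TMM normalization. Lmna, the targeted gene, was at 810, 874 and 936 CPM in shControl and at 388, 376 and 379 in shLmna, a log2 fold change of -1.20 ± 0.13 (SE, adjusted p = 3.55e-05, edgeR). The shControl libraries held plate positions 13 to 15 and the shLmna libraries positions 16 to 18, and effects of plate position and of group cannot be told apart. Since each molecule is counted once at its 3' end, in a window of the same length for every gene, levels were not divided by transcript length. All 7 members passed the filter on low counts, with between 18 and 997 UMIs in each library, so none entered the test through 1 group only.

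Caveolin-1, cavin-1 and cavin-3 had the highest mean levels of the caveolar transcripts in either group. In shControl the order of mean levels was Cav1 (181), Ptrf (172), Prkcdbp (136), Sdpr (109), Pacsin2 (107), Cav2 (37.3) and Ehd2 (30.4) CPM. In this group the lowest library of a gene lay above the highest library of the next gene in the order for 1 pair, Pacsin2 over Cav2, and the other neighbours in the order overlapped (Ptrf and Prkcdbp met at 149). In shLmna the order was Cav1 (385), Ptrf (301), Prkcdbp (212), Cav2 (181), Sdpr (146), Pacsin2 (97.8) and Ehd2 (37.4). Here Prkcdbp overlapped Cav2 and Cav2 overlapped Sdpr, and the other neighbours were apart. Cav2 moved from below Pacsin2 to above it between the groups.

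**Figure D1:**
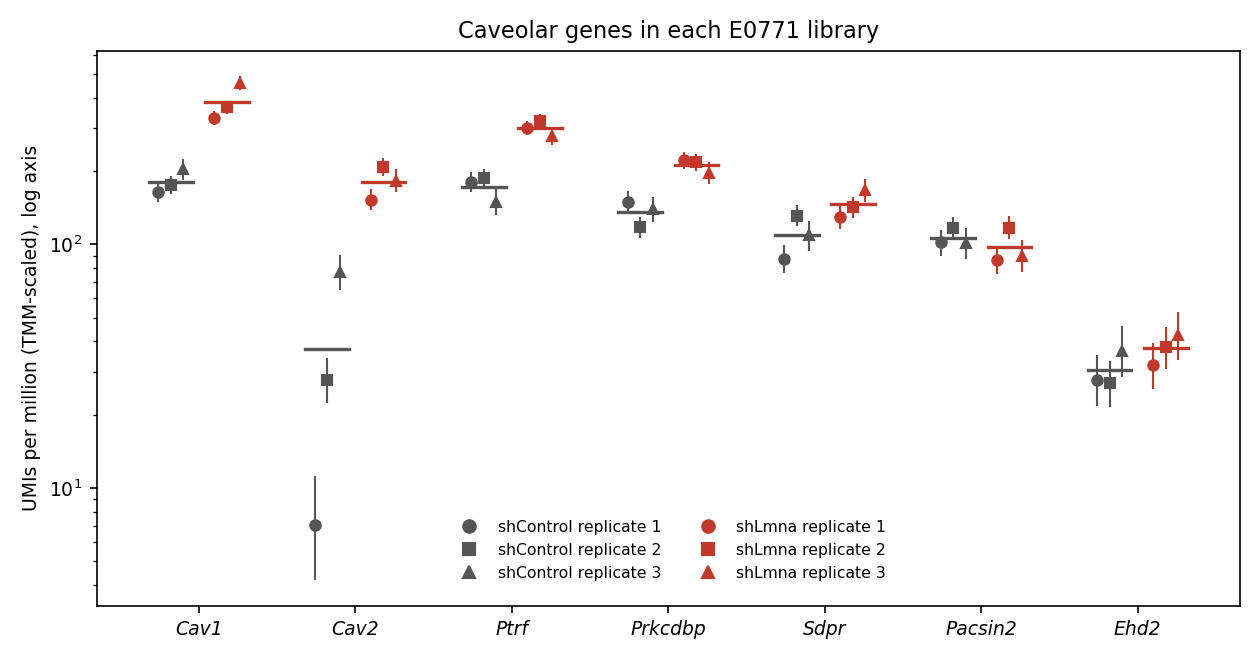
CPM (log axis) of the 7 caveolar genes in each of the 3 shControl (grey) and 3 shLmna (red) libraries. Bars are exact Poisson 95% intervals, which cover counting error only, and horizontal lines are group means. The red points of Cav1, Cav2, Ptrf and Prkcdbp lie above every grey point of the same gene, and the grey points of Cav2 run from 7.06 to 76.9.

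To ask how the caveolar transcripts differed when lamin A/C was reduced, each member was compared between the groups. Both caveolins, Ptrf and Prkcdbp rose in shLmna, while Sdpr, Pacsin2 and Ehd2 did not pass the test. Thus 4 of the 7 members had an adjusted p below 0.05 and were higher in shLmna, where 7.96% of the 8969 tested genes did so, and 0 were lower, where 5.78% of tested genes were. By an unadjusted p below 0.05 there were 5, all higher, with Sdpr added, where 15.3% of tested genes were higher by that rule. With the study's criteria, which also ask for an absolute log2 fold change above 1 and a mean normalized count above 5, Cav1 and Cav2 were called, 2 of 7, against 3.97% of tested genes called higher. The 3 shLmna libraries lay above all 3 shControl libraries for 4 members (16.8% of tested genes), the same 4. Without shControl replicate 2 the members past the adjusted p were 2, Cav1 and Ptrf. The share of all tested genes past the adjusted p in that fit was not computed. By the study's criteria, 346 tested genes were called in it, higher or lower, against 512 in the fit with all libraries. The median log2 fold change of the members was 0.65, against 0.003 over all tested genes.

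Cav1 was at 164, 176 and 203 CPM in shControl replicates 1, 2 and 3, and at 331, 366 and 459 in the shLmna replicates. The groups did not overlap, and the lowest shLmna library exceeded the highest shControl library by more than the spread within shControl. The mean rose from 181 ± 20.1 to 385 ± 66.3 (SD, n = 3 each), a 2.13-fold difference with a log2 fold change of 1.09 ± 0.16 (SE, adjusted p = 0.000376, edgeR), and Cav1 ranked 115 by p among the tested genes. Whichever library was left out, its log2 fold change lay between 0.95 and 1.18 and its adjusted p was at most 0.00914 (edgeR). It fell below 1, to 0.95, without shLmna replicate 3, the highest library.

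Cav2 showed the largest difference of the family and the widest spread among control libraries. It was at 7.06, 27.8 and 76.9 CPM in the shControl replicates, from 18, 89 and 145 UMIs. Their exact Poisson 95% intervals, 4.18 to 11.2, 22.3 to 34.2 and 64.9 to 90.5, did not overlap, so the control libraries differed by more than counting error. The shLmna replicates were at 152, 208 and 182, all above the highest control. The mean rose from 37.3 ± 35.9 to 181 ± 28.0 (SD, n = 3 each), a log2 fold change of 2.35 ± 0.45 (SE, adjusted p = 0.00336, edgeR). The size of this difference depended on which control library was kept. It was 1.82 without shControl replicate 1, 2.16 without replicate 2 and 3.31 without replicate 3, with adjusted p-values of 0.00143, 0.0548 and 2.51e-07 (edgeR). DESeq2 gave 2.28 ± 0.86 (SE) with an adjusted p = 0.0733, above the threshold of 0.05.

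The GENCODE 3' end of Cav2 has a GC content of 28.1%, the lowest of the members, against a median of 47.1% over the tested genes. Levels of low-GC genes differed between libraries, within shControl as well, and the groups overlapped. The 37 tested genes with at most 30% GC, Cav2 among them, had a median log2 deviation from their own mean of -0.70, -0.17 and 0.17 in shControl replicates 1, 2 and 3, the same order as the Cav2 levels, and of 0.12, 0.39 and 0.21 in shLmna. This group of genes was formed after the Cav2 values were seen. Of these genes, 27.0% were higher in shLmna by adjusted p, and their median log2 fold change was 0.51. After a correction for GC content the log2 fold change of Cav2 was 1.62 ± 0.31 (SE, adjusted p = 0.00273, edgeR), and that of Cav1, whose 3' end has 38.6% GC, was 0.92 ± 0.14 (SE, adjusted p = 0.000389, edgeR). Cav1 thereby fell below the criterion on the log2 fold change, and 1 member, Cav2, met all of the study's criteria. The correction left low-GC genes below 0. The corrected median log2 fold change was -0.36 over the 37 genes with at most 30% GC. It was -0.11 over the 1263 genes between 35% and 40% GC, where Cav1 lies, against 0.13 without the correction.

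Of the cavin transcripts, those of cavin-1 and cavin-3 rose and that of cavin-2 did not pass the test. Ptrf was at 180, 188 and 149 CPM in shControl and at 301, 322 and 279 in shLmna. The groups were well apart, with means of 172 ± 20.5 and 301 ± 21.4 (SD, n = 3 each), a 1.74-fold difference (log2 fold change 0.80 ± 0.14, SE, adjusted p = 0.00204, edgeR). The adjusted p of Ptrf was at most 0.0126 (edgeR) whichever library was left out. Prkcdbp was at 149, 118 and 140 in shControl and at 221, 218 and 197 in shLmna. Again the groups did not overlap, and the mean rose from 136 ± 16.3 to 212 ± 13.2 (SD, n = 3 each), a 1.57-fold difference (log2 fold change 0.65 ± 0.14, SE, adjusted p = 0.00848, edgeR). Without shControl replicate 2, its lowest library, the log2 fold change of Prkcdbp was 0.55 with an adjusted p = 0.066 (edgeR). The 3' ends of Ptrf and Prkcdbp have 48.5% and 49.4% GC, close to the median, and after the GC correction their log2 fold changes were 0.85 and 0.69.

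Sdpr was at 87.1, 131 and 109 CPM in shControl and at 130, 142 and 167 in shLmna. The groups overlapped, since shControl replicate 2 lay above shLmna replicate 1. Its log2 fold change was 0.42 ± 0.17 (SE, adjusted p = 0.122, edgeR). The 3' end of Sdpr has 32.9% GC, and after the GC correction its log2 fold change was -0.19 ± 0.16 (SE, adjusted p = 0.461, edgeR), so that the sign of its difference depended on this step. The 440 tested genes between 30% and 35% GC had a median log2 fold change of 0.38, and 23.2% of them were higher in shLmna by adjusted p. After the GC correction the median of these genes was -0.19, the same as the value of Sdpr.

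The transcripts of the 2 proteins of the caveolar neck, Pacsin2 and Ehd2, showed no difference past the test. Pacsin2 was at 102, 117 and 101 CPM in shControl and at 86.2, 117 and 89.9 in shLmna, with overlapping groups. Its log2 fold change was -0.13 ± 0.16 (SE, adjusted p = 0.657, edgeR), and leaving out each library gave -0.28 to -0.05. Ehd2 was the least abundant member, at 27.8, 26.9 and 36.6 in shControl and 31.9, 37.8 and 42.5 in shLmna. Its log2 fold change was 0.30 ± 0.20 (SE, adjusted p = 0.347, edgeR), from 69 to 103 UMIs in each library.

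**Figure D2:**
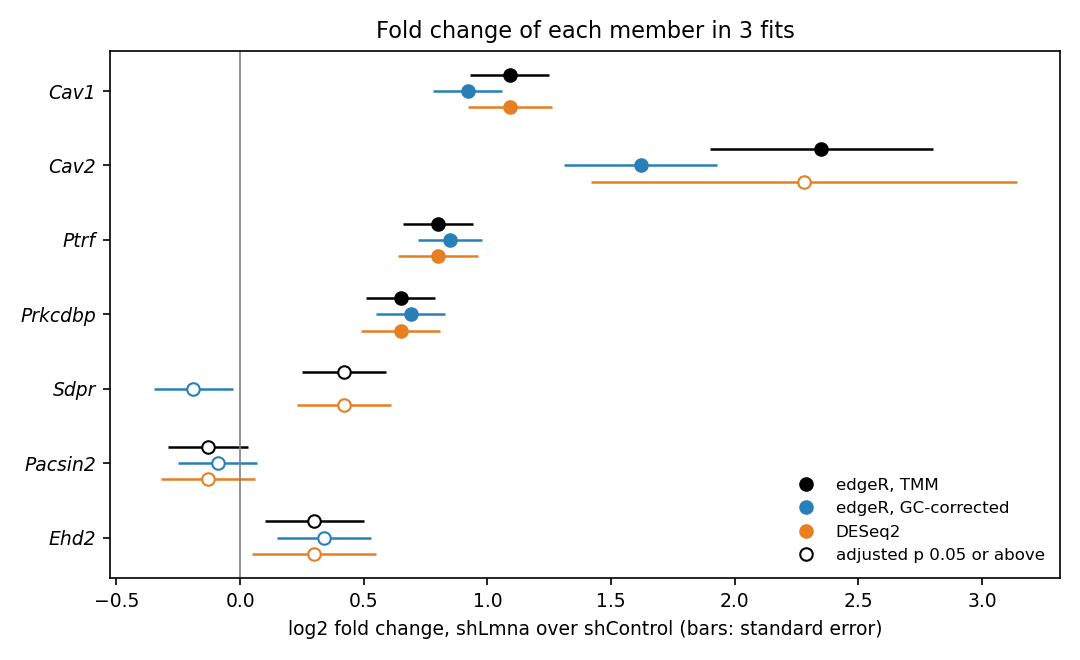
Log2 fold change of shLmna over shControl for each member, with its standard error, in edgeR with TMM scaling (black), edgeR with the GC correction (blue) and DESeq2 (orange). Open symbols have an adjusted p of 0.05 or above. Cav1, Ptrf and Prkcdbp are filled in all 3 fits, Cav2 is open in DESeq2, and Sdpr lies at 0.42 without the GC correction and at -0.19 with it.

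Ratios between members of the same library do not depend on how libraries are scaled. There were 22.6, 6.28 and 2.64 Cav1 UMIs for each Cav2 UMI in the shControl replicates, and 2.17, 1.76 and 2.51 in the shLmna replicates. All shLmna ratios lay below the shControl ratios, but shControl replicate 3 was close to them, and the mean log2 ratio fell by 1.76, from 2.85 ± 1.56 to 1.09 ± 0.26 (SD, n = 3 each). It fell by 0.94 without shControl replicate 1 and by 2.49 without shControl replicate 3. With the GC correction, added after the data were seen, it fell by 1.06, and the groups overlapped, with log2 ratios of 3.81, 2.31 and 1.37 in shControl and 1.42, 1.22 and 1.67 in shLmna. For each Ptrf UMI there were 0.909, 0.937 and 1.36 Cav1 UMIs in shControl and 1.10, 1.14 and 1.64 in shLmna. The Cav1 to Ptrf ratios overlapped between the groups, and the mean log2 ratio differed by 0.27 (0.05 with the GC correction), less than the SDs of 0.33 and 0.32 within the groups. Cavin-1 made up 37.5% to 43.3% of the UMIs of the 3 cavins in shControl and 43.4% to 47.3% in shLmna. The share of cavin-3 was 26.9% to 35.8% in shControl and 30.6% to 33.9% in shLmna, within the range of the controls, and that of cavin-2 was 20.9% to 30.1% and 19.9% to 26.0%. The shares of the cavins were not corrected for GC content. The log2 fold change of Sdpr, whose 3' end has 32.9% GC, was 0.42 without that correction and -0.19 with it. These ratios and shares are a description, and no test was run on them.

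**Figure D3:**
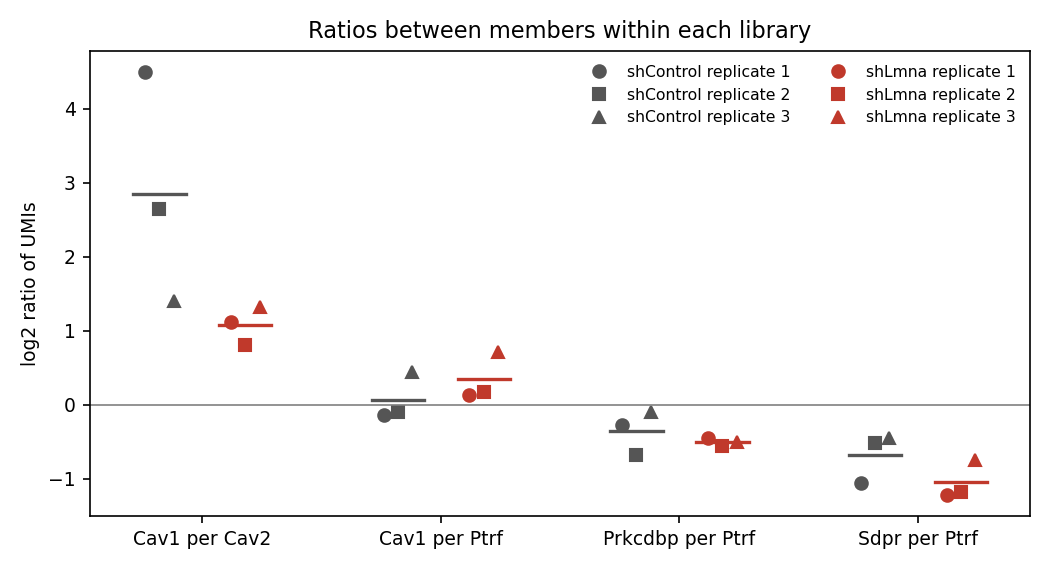
Log2 ratio of the UMIs of pairs of members within each library, with group means as horizontal lines (shControl grey, shLmna red). The Cav1 to Cav2 ratio runs from 1.40 to 4.50 in shControl and from 0.81 to 1.33 in shLmna, and the other 3 ratios overlap between the groups.

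Across the 6 libraries, the log2 levels of Cav1 correlated with those of Cav2, Ptrf and Prkcdbp at Pearson's r of 0.88, 0.86 and 0.86, and with Pacsin2 at -0.41. These values share the 6 libraries and their depth, and the difference between the groups makes up much of them. Among 5835 genes with a mean count of at least 50, the 3 whose pattern was most like that of Cav1 were Dysf (dysferlin, a membrane repair protein, r = 0.995), Cdon (a cell-surface receptor of the immunoglobulin family, r = 0.994) and Spp1 (osteopontin, a secreted matrix protein, r = 0.992). Dysf was at 12.6, 14.1 and 15.4 CPM in shControl and at 27.0, 26.8 and 36.7 in shLmna. The genes most like Ptrf were Spg7 (a mitochondrial protease subunit, r = 0.998), Ctdsp2 (a small phosphatase, r = 0.996) and Cyhr1 (r = 0.996).

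Related genes were read in the same fit. Of all 8969 tested genes, 7.96% were higher and 5.78% lower by adjusted p, and the counts in each list stand beside these shares. Of the other caveolar genes and paralogs, 3 of 7 were tested (Ehd1, Ehd4 and Pacsin3), and none passed an adjusted p of 0.05, with log2 fold changes of -0.19, 0.03 and -0.12. Ehd1, which works in endocytic recycling, was at 235 ± 11.9 CPM in shControl and 205 ± 38.4 in shLmna (SD, n = 3 each). Among 18 tested partners and regulators of caveolae, 0 were higher and 2 lower, with a median log2 fold change of -0.11. With the GC correction Abl1 was higher and Procr, Abl2, Src and Tgfbr1 were lower by adjusted p, and the median was -0.27. Shares over all tested genes by adjusted p were not computed with it, so these calls cannot be set against a share. The lower ones without it were Procr, the endothelial protein C receptor, which can sit in caveolae (182 ± 11.9 to 53.2 ± 1.02, SD, n = 3 each, log2 fold change -1.77, adjusted p = 3.76e-06, edgeR), and Abl2, a tyrosine kinase of the Abl family (log2 fold change -0.52, adjusted p = 0.0255, edgeR). Src, the kinase that phosphorylates caveolin-1, had a log2 fold change of -0.55 (adjusted p = 0.0632, or 0.0415 with the GC correction, edgeR). Tgfbr1, whose 3' end has 35.1% GC, went from -0.25 to -0.69 with the GC correction. All tested genes between 35% and 40% GC had a corrected median of -0.11. Flna, the actin crosslinker that tethers caveolin-1 to stress fibres, was at 1230 ± 67.8 and 1370 ± 118 (SD, n = 3 each), with an adjusted p = 0.496 (edgeR). Src and Flna were named after their values were seen.

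Of 8 flotillins and related raft proteins, 1 rose, Flot2, a flotillin of caveolin-free rafts (mean 74.9 to 128 CPM, log2 fold change 0.77 ± 0.17, SE, adjusted p = 0.00773, edgeR). The most abundant genes of this list were Phb2 and Phb, the prohibitins of the inner mitochondrial membrane, with log2 fold changes of -0.04 and -0.23 (adjusted p = 0.868 and 0.313, edgeR). Flot1, the partner of Flot2, had a log2 fold change of 0.46 (adjusted p = 0.122, edgeR) and was named after its value was seen. Of 20 tested genes of the clathrin coat, the other main route of coated endocytosis, 2 rose and 1 fell, and the median log2 fold change was 0.00. By the same rule 7.96% of all tested genes were higher and 5.78% lower. Picalm, a clathrin assembly protein, rose by 0.71 and Eps15, an adaptor scaffold, by 1.42 on the log2 scale, and Ap2a2, a subunit of the AP-2 adaptor, fell by 0.68 (adjusted p = 0.0397, 0.017 and 0.0403, edgeR). Eps15 had 9 to 18 UMIs in shControl and reached the count filter in 2 of 3 shControl libraries. After the GC correction the adjusted p of Eps15 was 0.0784 (edgeR), and its 3' end has 34.6% GC. None of 13 tested other BAR-domain proteins passed the adjusted p, with a median of -0.10, and their most abundant genes, Bin1 and Trip10, had log2 fold changes of 0.03 and -0.21. Of 8 genes of clathrin-independent entry and macropinocytosis, 2 had an adjusted p below 0.05 and were higher, Arf6, a GTPase of membrane recycling (2.39 ± 3.00 to 15.1 ± 6.52, SD, n = 3 each, adjusted p = 0.00461, edgeR), and Rac1, a GTPase of membrane ruffling (284 ± 43.2 to 405 ± 29.0, SD, n = 3 each, adjusted p = 0.0313, edgeR). Arf6 had 1, 3 and 11 UMIs in shControl and 23, 59 and 28 in shLmna, and it entered the test through the shLmna libraries, since only 1 shControl library reached the count filter.

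**Figure D4:**
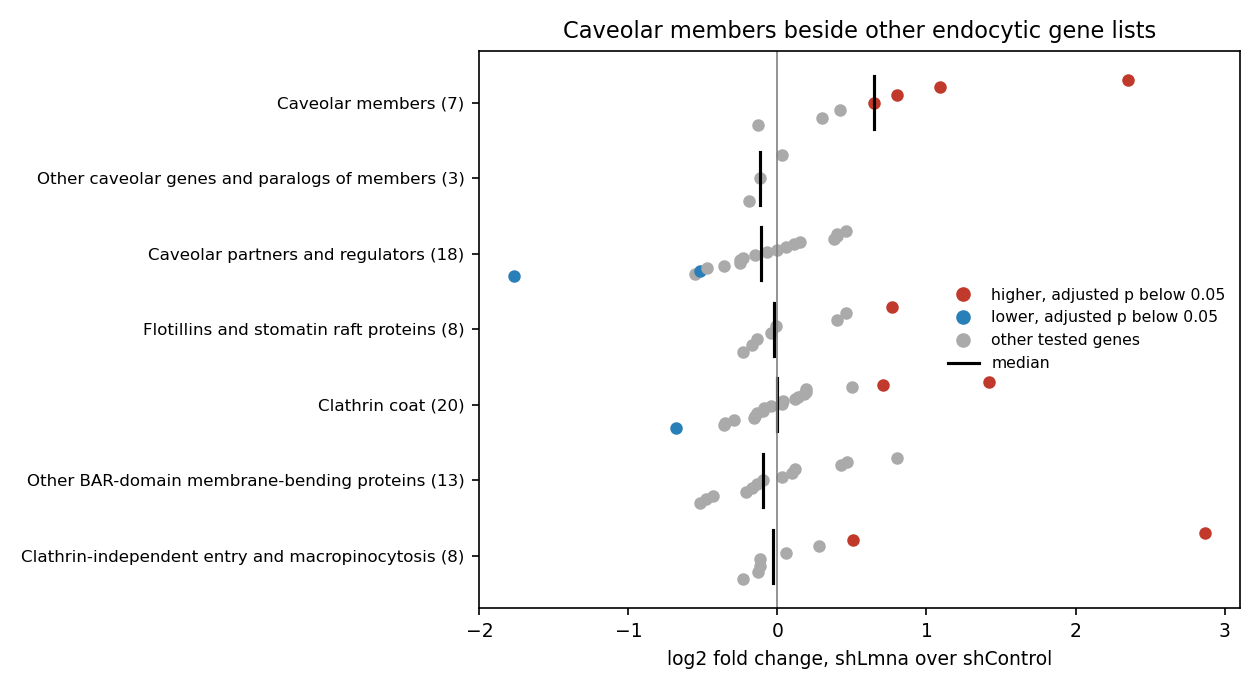
Log2 fold change of shLmna over shControl for the tested genes of each list, with the number tested in brackets. Red and blue points passed an adjusted p of 0.05 as higher or lower, and black lines are medians. The median is 0.65 for the caveolar members and between -0.12 and 0.00 for the other 6 lists plotted, which leave out the cell type markers.

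Caveolae are abundant in cell types that a tumour line should not hold, and in bulk RNA a change in the share of cells of a type and in the RNA per cell cannot be told apart. The E0771 libraries carried Krt8, a keratin of simple epithelium, at 276 ± 27.5 CPM in shControl and 291 ± 15.4 in shLmna (SD, n = 3 each). Epcam was low, at 13.7 ± 0.627 and 7.08 ± 4.07 (SD, n = 3 each). Lower still were the keratins Krt18, at 6.95 ± 2.36 and 4.56 ± 2.47, and Krt7, at 2.62 ± 1.51 and 3.75 ± 1.40 (SD, n = 3 each). Of the 8 epithelial markers, Cdh1, Krt19, Cldn4 and Esr1 had no row in the count table. Of 8 endothelial markers, only Pecam1 was measured, at 2 to 7 UMIs in each library, summing to 0.625 to 3.18 CPM in shControl and 0.75 to 2.13 in shLmna, and of 7 adipocyte markers none was measured. Of 8 fibroblast markers 4 were measured, summing to 18.6 to 18.8 in shControl and 27.2 to 30.8 in shLmna. Pdgfrb was higher (adjusted p = 0.0457, edgeR), and Dcn, Lum, Thy1 and Fap had no row in the count table. Of 7 muscle markers 5 were measured, summing to 109 to 120 and 114 to 150. Most of that sum was Ckm, at 93.1 ± 4.34 and 88.2 ± 20.6 (SD, n = 3 each), and Acta2, smooth muscle actin, rose from 2.80 ± 1.24 to 13.8 ± 3.55 (SD, n = 3 each, adjusted p = 0.00147, edgeR). Acta2 entered the test through shLmna, with 1 shControl library at the count filter. Of 7 immune markers 3 were measured, summing to 15.9 to 19.2 and 20.9 to 26.6, and Ptprc had no row in the count table. Lyz2 was higher (adjusted p = 0.011, edgeR, 2 of 3 shControl libraries at the count filter). Cd68 was at 10.2 ± 2.78 and 6.48 ± 1.85 (SD, n = 3 each, log2 fold change -0.62, adjusted p = 0.234, edgeR). The median log2 fold change was -0.53 over 3 tested epithelial markers and 0.39 over 2 of fibroblasts. It was 0.63 over 5 of muscle and 0.33 over 2 of immune cells. The epithelial median is that of Krt18 (adjusted p = 0.453, edgeR), with Epcam at -0.90 and Krt8 at 0.07 (adjusted p = 0.0909 and 0.776, edgeR). The muscle median is that of Des (adjusted p = 0.309, edgeR). The immune markers went both ways, Lyz2 at 1.28 and Cd68 at -0.62. The part of these markers in the caveolar differences was not tested.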

How the data were processed

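RNA of 3 shControl and 3 shLmna E0771 libraries was sequenced by MARS-seq. Per the study's methods and the submitters' processing notes, the authors trimmed reads with Cutadapt, mapped them to mm10 with STAR 2.4.2a and deposited raw UMI counts per RefSeq gene, made with a modified HTSeq-count over the last 1000 bases and 100 bases downstream. Whether counting used strand is not given in the sources used here. The authors also deposited log2 values, normalized and corrected with ComBat for a batch that is not named. They were read only as a description, and the mean ComBat difference was 0.75 for Cav1 and 1.47 for Cav2. A deposited table of the authors' own DESeq2 comparison was not used.

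Counts were fitted in R 4.3.3 with edgeR 4.0.16: filterByExpr (minimum count 10, 8969 genes kept), TMM factors, the quasi-likelihood test without a replicate block, and Benjamini-Hochberg adjustment over all tested genes. DESeq2 1.42.0, limma-voom (limma 3.58.1), other scalings and filters, the replicate block and each library left out were alternatives. The GC content of each gene came from the final 1000 bases of its GENCODE M21 transcript, not the RefSeq gene counted, matched for 10466 of 10520 genes, 321 through older symbols, and entered as a loess offset of span 0.3. Ratios used UMIs plus 0.5. Fits were tested on simulated data. With 3 libraries a group an exact permutation test cannot go below 0.1. Poisson intervals (95%) cover counting error only. Members and lists were chosen with earlier results of these data known. Every member is named, as are list genes with an adjusted p below 0.05 or, where fewer than 2 were so, the most abundant, and the 3 genes most like Cav1 and Ptrf. Promoter sequences are from RefSeq. Python 3.11.15, pandas 2.3.3, scipy 1.17.1 and matplotlib 3.10.9 were used.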

Additional observations from a re-analysis of the deposited data

How the results depend on the processing

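Cav1 and Ptrf kept their direction and an adjusted p below 0.05 under all 15 alternatives (log2 fold changes of 0.91 to 1.18 and 0.70 to 0.86), and Prkcdbp under 14, the exception being the fit without shControl replicate 2. Cav2 lost the call in DESeq2 and without shControl replicate 2, and was between 1.62 and 3.31 elsewhere. Sdpr reversed to -0.19 with the GC correction and to -0.18 with it and the replicate block. With the GC correction the median of all tested genes between 30% and 35% GC, where Sdpr lies, was also -0.19. Pacsin2 and Ehd2 kept their direction and did not pass under any alternative. Between 2 and 4 members had an adjusted p below 0.05 over the fits that left out 1 library, 2 of them (Cav1 and Ptrf) without shControl replicate 2. By the study's criteria, between 346 and 654 tested genes were called over those fits, the fewest without shControl replicate 2. Between 1 and 2 members met all of the study's criteria over those fits, and 1 did so in DESeq2 (Cav1), with the GC correction (Cav2) and with the GC correction and the replicate block (Cav2). Keeping genes with a mean count of 50 or more reduced the called genes over the whole table from 512 to 158, from fewer genes tested. The Cav1 to Cav2 log2 ratio fell by between 0.94 and 2.49 over its alternatives. It fell by 1.06 with the GC correction, an alternative chosen after seeing the data. Of the members, Ehd2 had the fewest UMIs in shLmna (80 to 103 a library) and Cav2 the library with the fewest in all (18). Deviations of same-numbered libraries correlated at 0.35, -0.11 and 0.0052, so the numbers were not taken to pair the libraries. With the replicate block the log2 fold change of Cav2 was 2.61, and the block changed no call of a member.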

Other observations

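The nearest genes of the count table on either side of each member were read after the members' values were known, from RefSeq positions (GRCm38.p6). Cav1 and Cav2 lie 17.2 kb apart and both rose. Beyond them on chromosome 6 lie Tes, a LIM-domain protein of focal adhesions, 175.4 kb before Cav2, and Met, the receptor of hepatocyte growth factor, 122 kb after Cav1. Tes had 393, 421 and 218 UMIs in shControl and 350, 328 and 260 in shLmna, a log2 fold change of -0.05 ± 0.15 (SE, adjusted p = 0.879, edgeR). Met had 228, 210 and 158 UMIs in shControl and 223, 269 and 189 in shLmna, a log2 fold change of 0.25 ± 0.16 (SE, adjusted p = 0.353, edgeR). Neither flanking gene thus passed the test, while both caveolins between them did. The log2 fold changes were -0.00 for Stat3 and 0.12 for Atp6v0a1, the neighbours of Ptrf. Of the 11 tested neighbours that are no members, 1 was higher and 1 lower by adjusted p, with a median log2 fold change of 0.12. By that rule 7.96% of all tested genes were higher and 5.78% lower. The higher one, Slc39a10, lies 4363.3 kb from Sdpr and had 6, 3 and 6 UMIs in shControl and 22, 26 and 8 in shLmna. No shControl library reached the count filter for Slc39a10, so it entered the test through the shLmna libraries. The lower one, Gltscr2, lies 0.9 kb from Ehd2 and had a log2 fold change of -0.58 (adjusted p = 0.0486, edgeR).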
